A study of Mus musculus with 9 samples.

Results

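The beta subunits of the sodium-potassium ATPase, the sodium pump, were measured as 3 genes, Atp1b1, Atp1b2 and Atp1b3, among 23412 gene symbols in a table of hippocampal transcript levels. They were chosen by name. The alpha subunit genes were not analysed here. Bulk RNA sequencing was done on hippocampus of wild-type (WT) mice at postnatal day 21, in 3 groups of 3 libraries. Control mice were sham treated. Perfluorooctane sulfonate (PFOS), a persistent fluorinated surfactant, reached the pups of the PFOS P1-7 group in milk from day 1 to day 7 and those of the PFOS P8-14 group from day 8 to day 14, while their dams were gavaged with 1 mg/kg body weight daily. The study asked which of these windows is the sensitive one. The labels name no litter and do not say whether each library is a separate animal, so p-values measure only the spread between these libraries, which may be partly technical.

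The sodium pump moves sodium out of the cell and potassium in, at the cost of ATP, and so maintains the gradients on which action potentials, neurotransmitter uptake and calcium extrusion depend. A catalytic alpha subunit carries the ions. A beta subunit, a glycoprotein with a single membrane span, is needed to fold the enzyme and bring it to the cell surface, and small FXYD proteins tune its kinetics. Atp1b1 encodes the widely expressed beta1 isoform, which is abundant in neurons. Atp1b2 encodes beta2, known in brain as the adhesion molecule on glia (AMOG) and typical of astrocytes. Atp1b3 encodes beta3, found in many tissues.

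All 3 genes lie on the minus strand of the mouse genome (GRCm38, the mm10 build of the deposited values). Atp1b1 (ENSMUSG00000026576) spans chr1:164437109-164458355. Its longest annotated transcript has 6 exons in 2580 bases and encodes 304 codons. Atp1b2 (ENSMUSG00000041329) spans chr11:69599736-69605942, with 7 exons in 2842 bases and 290 codons. Atp1b3 (ENSMUSG00000032412) spans chr9:96332655-96364442, with 7 exons in 1994 bases and 278 codons.

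The 250 bases before the RefSeq start site of Atp1b1 (chr1:164458356-164458605) and of Atp1b3 (chr9:96364432-96364681) are shown. They are RefSeq sequences of GRCm38.p6, read 5′ to 3′ on the minus strand. The set of promoters used here held no window for Atp1b2. It held 2 starts for Atp1b3, and only the window at the RefSeq start of the gene was searched. The Atp1b3 span given above, from GENCODE M21, reaches into that window. Capitals mark matches to 4 motifs, each searched on both strands. The first is the CCAAT box, which reads ATTGG on the opposite strand. The second is a TATA box, searched as TATATA. The third is the GC box, searched as GGGCGG and, for the opposite strand, as its reverse complement CCGCCC. The fourth is the core of the cAMP response element, searched as TGACG and as its reverse complement CGTCA.
Atp1b1: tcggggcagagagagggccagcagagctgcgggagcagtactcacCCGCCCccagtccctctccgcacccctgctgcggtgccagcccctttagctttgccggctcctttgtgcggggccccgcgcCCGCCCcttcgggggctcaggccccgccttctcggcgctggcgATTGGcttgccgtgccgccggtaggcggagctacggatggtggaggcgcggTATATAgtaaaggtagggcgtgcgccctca
Atp1b3: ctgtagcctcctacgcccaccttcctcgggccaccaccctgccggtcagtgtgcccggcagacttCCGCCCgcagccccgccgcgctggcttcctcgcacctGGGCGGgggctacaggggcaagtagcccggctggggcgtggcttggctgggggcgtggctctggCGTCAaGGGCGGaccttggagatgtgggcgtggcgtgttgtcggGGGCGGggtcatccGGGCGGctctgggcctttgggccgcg
The Atp1b1 window is 70.4% G or C and holds 1 CCAAT box, 1 TATATA and 2 GC boxes. The Atp1b3 window is 73.6% G or C and holds 5 GC boxes and 1 cAMP element core, with no match to the CCAAT or TATA box. No matches overlap. Of 32851 promoter windows of this length, 33.8% hold a CCAAT box, 5.2% TATATA, 32.7% a GC box and 17.8% a cAMP element core. These matches describe the letters only and are not evidence of factor binding.

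Libraries differed in ways that touch the beta subunit values. Control replicate 1 stood with the exposed libraries and away from the other controls for Atp1b1 and Atp1b2. Differences from control are therefore also given without it. The library was picked by these same values, so adjusted p-values without it, here and for other genes, are not support for a difference. Leaving out each library in turn gave Atp1b2 differences down to 0.18 in PFOS P1-7 and 0.16 in PFOS P8-14. The limma adjusted p in those fits reached 0.553 and 0.885. The deviation of all genes from their mean ran with transcript length, with a Spearman rho across 13457 genes of 0.19, -0.42 and -0.52 in control replicates 1, 2 and 3. It was 0.13, 0.48 and 0.18 in PFOS P1-7, and 0.17, -0.20 and 0.31 in PFOS P8-14. Choroid plexus markers, all 15 of 15 measured, summed to 10742 to 13018 TPM in 5 libraries (the third control, the first and the third of PFOS P1-7, and the first and the second of PFOS P8-14) and to 160 to 271 TPM in the others. Ttr made up most of the 5 higher sums, at 10420 TPM in the third control. The mean log2 deviation of the 15 markers was lower in that control, at 0.89. It was 1.89 and 1.85 in those PFOS P1-7 libraries and 1.95 and 1.31 in those of PFOS P8-14. TPM are a relative measure of transcript number, scaled by transcript length; levels of different genes can therefore be set side by side. They keep no sequencing depth, which is unknown here.

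Atp1b1 was the most abundant beta subunit mRNA in every library, followed by Atp1b2 and Atp1b3. Atp1b1 ranged from 1611 to 2078 TPM over the 9 libraries, between the 32nd and 64th highest value in a library. Atp1b2 ranged from 283 to 394 TPM and Atp1b3 from 98.99 to 119.28 TPM. The order Atp1b1, Atp1b2, Atp1b3 held in 9 of 9 libraries, with no overlap between neighbours. Within a library Atp1b1 stood at 5.31 times Atp1b2 (geometric mean, range 4.76 to 5.71) and 17.2 times Atp1b3 (13.9 to 20.8). Atp1b2 stood at 3.24 times Atp1b3 (2.44 to 3.89). For each of these 3 ratios an exact two-sided sign-flip permutation test over the 9 libraries gave p = 0.00391, the smallest value it allows. The gaps between genes far exceeded the spread between libraries, so this p restates the order and adds no further support. The test pools the 3 groups.

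Atp1b1 made up 80.3% ± 0.911 (SD, n = 3) of the summed beta subunit TPM in control, 80.0% ± 1.21 in PFOS P1-7 and 80.2% ± 0.485 in PFOS P8-14. The share of Atp1b2 was 14.5% ± 0.423, 15.6% ± 0.759 and 15.2% ± 0.524. The share of Atp1b3 was 5.12% ± 1.04, 4.36% ± 0.480 and 4.64% ± 0.220. The composition of the beta subunit mRNA pool moved by about 1 percentage point or less between group means. In bulk tissue, fewer cells of a type and less RNA per cell cannot be told apart.

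**Figure D1:**
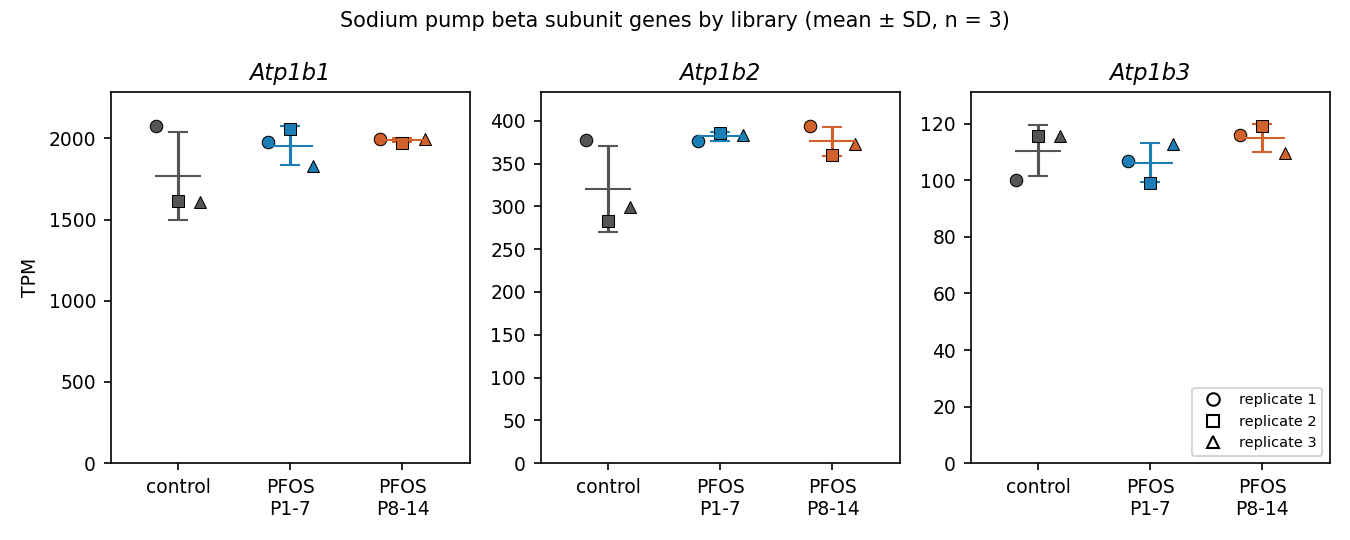
TPM of Atp1b1, Atp1b2 and Atp1b3 (a panel each, vertical axis from 0) in control, PFOS P1-7 and PFOS P8-14 libraries. Symbols are replicates, the bar and whiskers are the mean ± SD of 3 libraries. Control replicate 1 lies at 2078 TPM for Atp1b1, above every exposed library, while control replicates 2 and 3 lie at 1614 and 1611 TPM.

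The first comparison asked how the beta subunit genes stood at day 21 after exposure on days 1 to 7. None of the 3 passed the threshold in limma, a linear model over 14336 tested genes with Benjamini-Hochberg adjustment, and neither did any other gene (0% called higher, 0% lower at adjusted p below 0.05). At an unadjusted p below 0.05, Atp1b2 alone of the 3 was higher, beside 12.5% of all tested genes higher and 5.79% lower. Groups overlapped for all 3 genes, whereas 12.3% of all genes were higher and 6.56% lower without overlap.

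Atp1b1 stood at 2077.56, 1614.48 and 1610.71 TPM in control replicates 1, 2 and 3 and at 1979.17, 2059.81 and 1826.83 TPM in PFOS P1-7. The exposed libraries lay above control replicates 2 and 3 and below control replicate 1. On the log2 scale it differed by 0.15 (SE 0.11, 95% interval -0.09 to 0.40, limma adjusted p = 0.447), beside a median of 0.09 over all tested genes, of which 65.5% were above 0. Without control replicate 1 it was 0.28 (limma adjusted p = 0.0354). With that library left out and the length trend also removed it was 0.21 (limma adjusted p = 0.218).

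Atp1b2, the astrocyte-typical isoform, stood at 377.25, 282.71 and 299.62 TPM in control and at 375.79, 385.24 and 383.66 TPM in PFOS P1-7. The exposed libraries lay close together, and control replicate 1 fell just inside their range. The log2 difference was 0.27 (SE 0.10, 95% interval 0.04 to 0.50, limma unadjusted p = 0.0281, adjusted p = 0.237). Without control replicate 1 it was 0.39 (limma adjusted p = 0.00836), and 0.30 (limma adjusted p = 0.0386) with the length trend removed as well. With all 9 libraries and the length trend removed it was 0.20 (limma adjusted p = 0.396).

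Atp1b3 stood at 100.15, 115.70 and 115.54 TPM in control and at 106.98, 98.99 and 112.70 TPM in PFOS P1-7. Here control replicate 1 was the lowest control, the reverse of its place for the other beta subunits. This gave a log2 difference of -0.05 (SE 0.08, 95% interval -0.24 to 0.13, limma adjusted p = 0.724), and -0.12 (limma adjusted p = 0.280) without that library.

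Exposure on days 8 to 14 gave values of similar size for Atp1b1 and Atp1b2. None of the 3 genes passed in limma, again with 0% of all genes called higher and 0% lower. Atp1b2 was higher at an unadjusted p below 0.05, beside 6.33% of all genes higher and 4.65% lower. All 3 genes overlapped with control, while 7.31% of all genes were higher and 5.99% lower without overlap. Both exposed groups were compared with the same 3 control libraries, so the 2 sets of differences are not independent.

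Atp1b1 stood at 1995.92, 1972.92 and 1996.10 TPM in PFOS P8-14. These 3 libraries lay within a narrow band between the controls. The log2 difference from control was 0.18 (SE 0.11, 95% interval -0.06 to 0.42, limma adjusted p = 0.517), beside a median of 0.06 over all genes, of which 62.1% were above 0. Without control replicate 1 it was 0.30 (limma adjusted p = 0.0356), and 0.25 (limma adjusted p = 0.155) with the length trend removed too.

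Atp1b2 stood at 394.10, 360.44 and 372.95 TPM in PFOS P8-14, so that control replicate 1 again lay among the exposed libraries. The log2 difference was 0.24 (SE 0.10, 95% interval 0.01 to 0.47, limma unadjusted p = 0.0409, adjusted p = 0.443). Without control replicate 1 it was 0.37 (limma adjusted p = 0.0157), and 0.30 (limma adjusted p = 0.0484) with the length trend removed as well. Atp1b3 stood at 115.90, 119.28 and 109.66 TPM, with a log2 difference of 0.06 (SE 0.08, 95% interval -0.13 to 0.25, limma adjusted p = 0.767). Its sign turned without control replicate 1, to -0.0092.

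**Figure D2:**
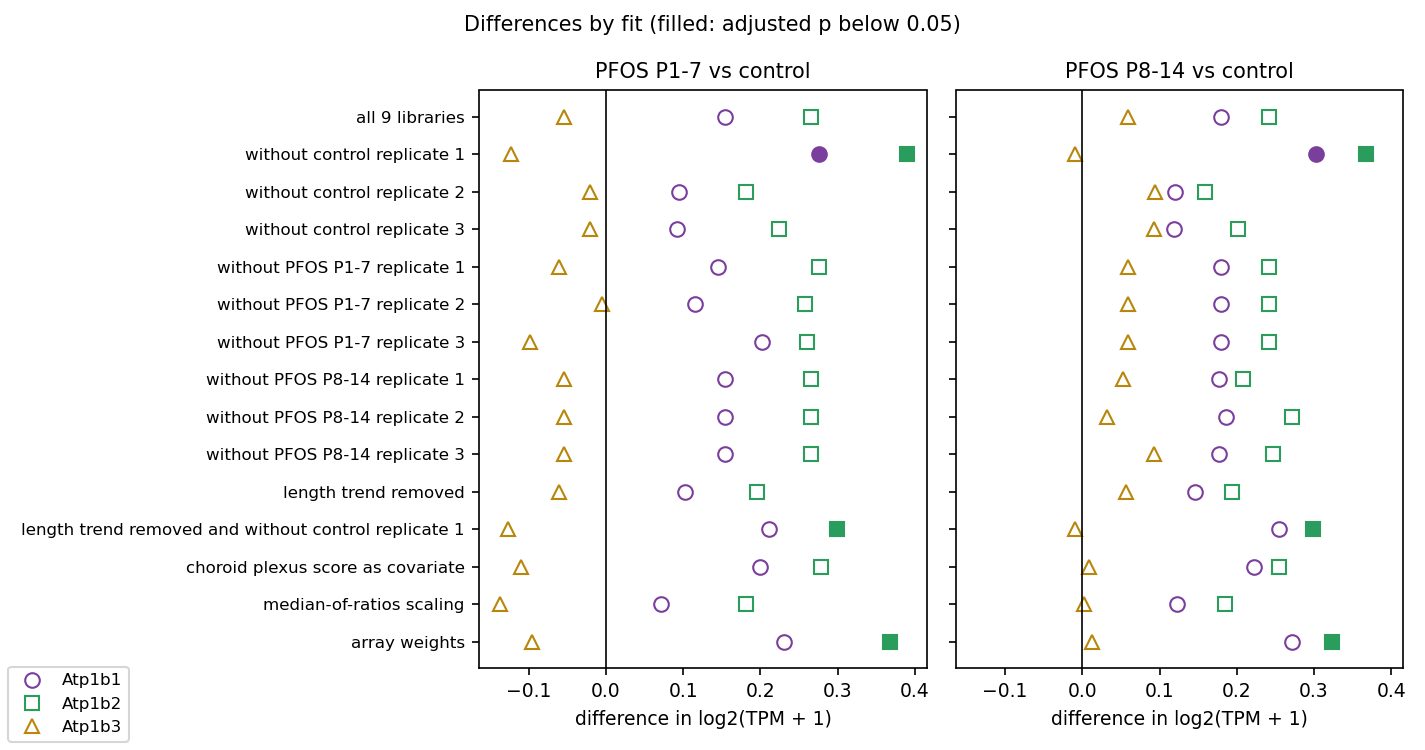
Difference in log2(TPM + 1) of each beta subunit gene from control (horizontal axis) under several fits (rows), for PFOS P1-7 on the left and PFOS P8-14 on the right; filled symbols have a limma adjusted p below 0.05. Atp1b2 is filled in both panels without control replicate 1 (0.39 and 0.37), with the length trend removed and that library left out (0.30 and 0.30), and with array weights (0.37 and 0.32).

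The third comparison set the later window against the earlier one. In PFOS P8-14 relative to PFOS P1-7 the log2 difference was 0.03 for Atp1b1 (95% interval -0.22 to 0.27), -0.02 for Atp1b2 (-0.25 to 0.21) and 0.11 for Atp1b3 (-0.07 to 0.30). The limma adjusted p was 0.9998 for each. All 3 genes overlapped between the windows, beside 1.9% of all genes higher and 4.15% lower without overlap, with 0% of all genes called in either direction. At an unadjusted p below 0.05 none of the 3 was called, beside 0.467% of all genes higher and 0.635% lower. These intervals still allow differences of about the size seen against control. Asked together, whether the groups differed at all, the moderated F statistic gave limma adjusted p = 0.646 for Atp1b1, 0.445 for Atp1b2 and 0.743 for Atp1b3.

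Ratios within a library do not depend on how libraries are scaled. They can still carry the length trend of a library, which was not removed from them. Over the 9 libraries Pearson r with that trend was 0.85 for Atp1b1, 0.88 for Atp1b2 and -0.68 for Atp1b3. The Atp1b1/Atp1b2 ratio was 5.51, 5.71 and 5.38 in control replicates 1, 2 and 3 and 5.27, 5.35 and 4.76 in PFOS P1-7. All PFOS P1-7 libraries lay below all controls, control replicate 1 included, by 0.11 on the log2 scale (exact two-sided permutation p = 0.1, the smallest that 3 against 3 allows, adjusted p = 0.45 over 9 ratio tests). Without PFOS P1-7 replicate 3, the lowest library, the ratio differed by -0.059. In PFOS P8-14 the ratio was 5.06, 5.47 and 5.35 and overlapped with control (exact permutation p = 0.2).

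The Atp1b2/Atp1b3 ratio was 3.77, 2.44 and 2.59 in control, 3.51, 3.89 and 3.40 in PFOS P1-7 and 3.40, 3.02 and 3.40 in PFOS P8-14. Control replicate 1 lay among the PFOS P1-7 libraries, and the log2 difference was 0.32 with it (exact permutation p = 0.3) and 0.51 without it. The later window lay below the earlier one in every library, with values of 3.4043 and 3.4010 at the boundary (exact permutation p = 0.1, adjusted p = 0.45). The Atp1b1/Atp1b3 ratio overlapped in all 3 comparisons, with exact permutation p from 0.3 to 0.6. No ratio test could pass the threshold at this number of libraries.

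**Figure D3:**
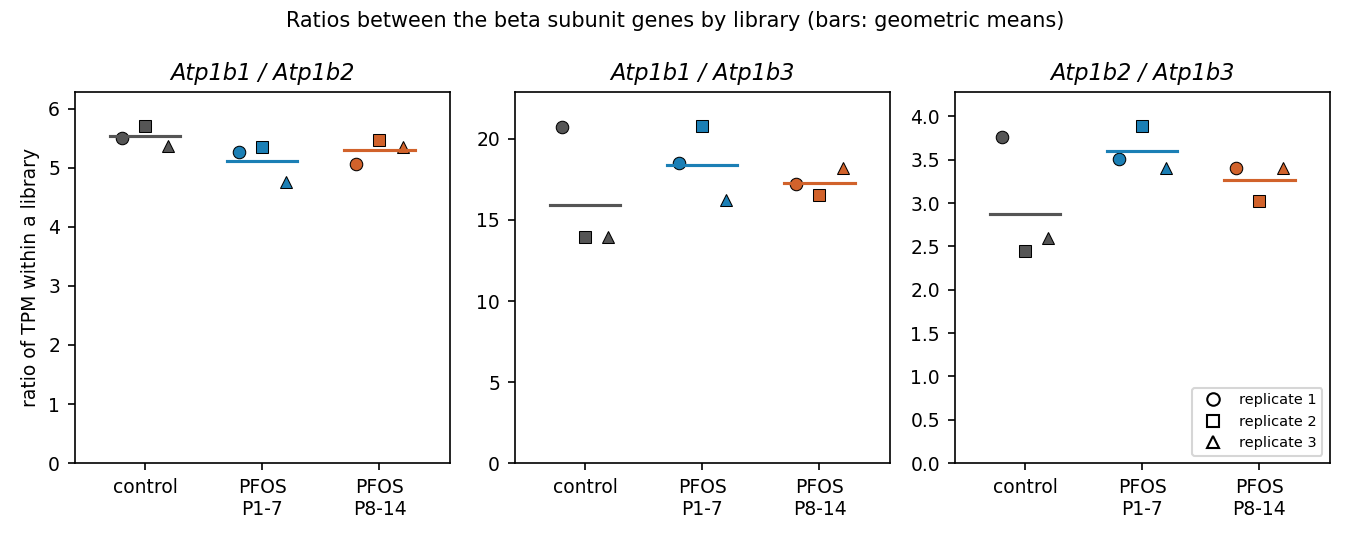
Ratio of TPM between each pair of beta subunit genes within a library (vertical axis from 0), by group; symbols are replicates and bars geometric means of 3 libraries. The Atp1b1/Atp1b2 ratio runs from 4.76 to 5.71, a narrower band than the 13.9 to 20.8 of Atp1b1/Atp1b3.

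Across the 9 libraries the Pearson r of log2 values was 0.90 between Atp1b1 and Atp1b2 (Spearman rho 0.62, n = 9), but that value rests on control replicates 2 and 3, which were the lowest for both genes. Without these libraries r was -0.02 (n = 7). Atp1b3 ran against Atp1b1, with r = -0.57 over 9 libraries and -0.58 over those 7, and against Atp1b2 with -0.43 and -0.24. These are descriptions: the points share libraries, groups and the length trend.

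With the length trend of a library r was 0.85 for Atp1b1, 0.88 for Atp1b2 and -0.68 for Atp1b3 over 9 libraries. Without the libraries farthest from each gene's median (control replicates 2 and 3 for Atp1b1 and Atp1b2, control replicate 1 and PFOS P1-7 replicate 2 for Atp1b3) it was 0.29, 0.63 and -0.58. With the mean of 12 neuron markers, such as Syp, Snap25 and Thy1, r was 0.89, 0.74 and -0.67, and without those libraries 0.83, -0.08 and -0.32. For 12 astrocyte markers, such as Aldoc, Slc1a2 and Slc1a3, it was 0.75, 0.71 and -0.66, and 0.39, 0.60 and -0.41. For choroid plexus markers, led by Ttr, Enpp2 and Calml4, it was -0.05, 0.24 and 0.53, and -0.67, 0.08 and 0.04. Of these, Atp1b1 with neuron markers was the value that stayed above 0.8 on leaving libraries out. All 12 neuron markers were tested, and their summed level ran from 7621 to 9299 TPM in control, 7960 to 8775 in PFOS P1-7 and 8462 to 9030 in PFOS P8-14. The 12 astrocyte markers together ran to 2791 to 3616, 3200 to 3518 and 3118 to 3411 TPM. The part of these cell type markers and of the length trend in the beta subunit differences was not tested beyond the fits given above.

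The other marker lists held, among others, Mbp and Cnp for oligodendrocytes, C1qc and C1qa for microglia and Ly6c1, Cldn5 and Itm2a for endothelium. For oligodendrocytes r was -0.55 for Atp1b1, -0.24 for Atp1b2 and 0.64 for Atp1b3, and -0.84, 0.06 and -0.14 without the libraries farthest from each gene's median. Control replicate 1 had the lowest mean of oligodendrocyte markers, at -0.71 on the log2 scale. For microglia r was -0.10, -0.17 and -0.48, and for endothelium 0.20, 0.34 and -0.04.

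**Figure D4:**
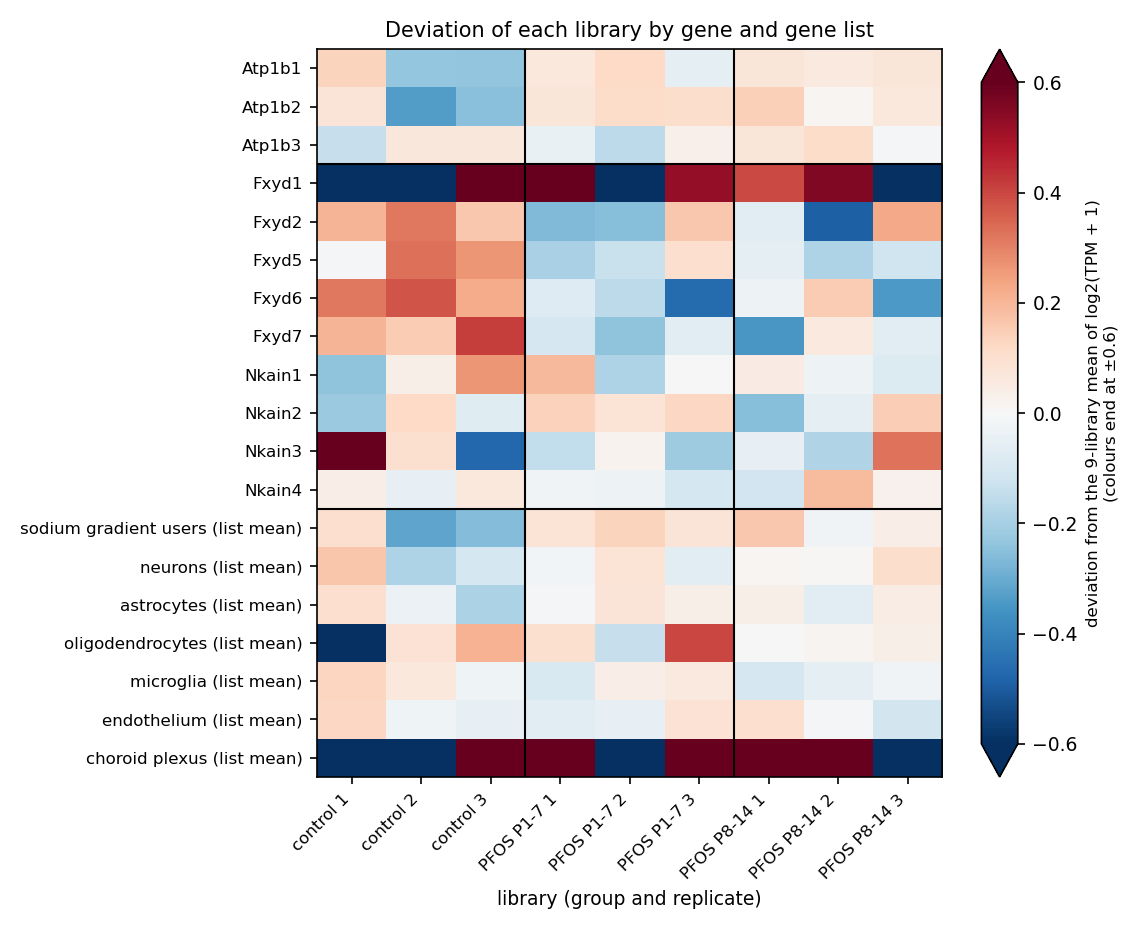
Deviation of each library from the mean of 9 libraries in log2(TPM + 1), for the beta subunit genes, the tested pump partner genes and the means of gene lists (rows); colours end at ±0.6. Atp1b1, Atp1b2 and the sodium gradient users are below their mean in control replicates 2 and 3 and above it in control replicate 1.

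Of the genes most like each beta subunit gene by Pearson r over the 9 libraries, among 10921 with a mean of at least 5 TPM, Chrna7 led for Atp1b1 (r = 0.99), followed by Dcaf7, Fbxo21, Pxmp4 and Tnik (each 0.98). Chrna7 encodes the alpha7 nicotinic acetylcholine receptor. For Atp1b2 the leading genes were Hsd17b4, a peroxisomal beta-oxidation enzyme, Eif4g3, Acsl6, Tmem48 and Cacng7, with r from 0.989 to 0.995. For Atp1b3 they were Saysd1 (r = 0.92), Snx15 and Ddc (each 0.91), Psme1 and Fbxo8 (each 0.90). The low values of control replicates 2 and 3 enter each r for Atp1b1 and Atp1b2, and high likeness to these genes was common: 718 genes (6.57%) reached r of 0.9 with Atp1b1 and 897 (8.21%) with Atp1b2, but 4 (0.0366%) with Atp1b3.

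Pump partner genes, the FXYD regulators, the Nkain genes that encode proteins interacting with the pump, and related beta-like and proton pump subunits, were listed as 15 genes, of which 9 passed the filter on low values. Fxyd3, Fxyd4, Atp1b4, Atp4a, Atp4b and Atp12a did not. None of the 9 passed in limma in any comparison. In PFOS P1-7, 7 of the 9 were below control, with a median log2 difference of -0.19 beside 0.09 over all genes. At an unadjusted p below 0.05, 3 were lower and 0 higher, beside 5.79% of all genes lower. In PFOS P8-14, 6 of the 9 were below control (median -0.05 beside 0.06), of which 3 were lower and 0 higher by the unadjusted rule, beside 4.65% of all genes lower. In both windows these were Fxyd5, Fxyd6 and Fxyd7.

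Fxyd6, a regulator expressed in brain, stood at 160.33, 167.30 and 150.13 TPM in control, at 121.84, 115.48 and 93.08 TPM in PFOS P1-7 and at 126.12, 143.32 and 101.29 TPM in PFOS P8-14. Every exposed library lay below every control, control replicate 1 included. Of all genes, 6.56% in PFOS P1-7 and 5.99% in PFOS P8-14 were lower than control without overlap. The log2 difference of Fxyd6 was -0.54 (SE 0.14, limma adjusted p = 0.181) in PFOS P1-7 and -0.38 (limma adjusted p = 0.426) in PFOS P8-14. Without control replicate 1 these were -0.53 (limma adjusted p = 0.0437) and -0.37 (0.143). With the length trend removed as well, neither passed, at -0.51 (limma adjusted p = 0.0879) and -0.35 (0.214). Across the fits that left out each library in turn, Fxyd6 ran from -0.61 to -0.42 and from -0.49 to -0.24 (limma adjusted p up to 0.504 and 0.885).

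Fxyd7, a brain regulator of the pump, stood at 229.18, 221.35 and 265.64 TPM in control, at 185.31, 168.11 and 190.36 TPM in PFOS P1-7 and at 155.79, 207.46 and 189.65 TPM in PFOS P8-14. The groups did not overlap with control here either, beside the same 6.56% and 5.99% of all genes lower. The differences were -0.39 (SE 0.11, limma adjusted p = 0.204) and -0.38 (limma adjusted p = 0.426). Its longest transcript is short, at 693 bases, and with the length trend removed the differences were -0.23 and -0.24. Leaving out control replicate 1 gave -0.42 (limma adjusted p = 0.0494) and -0.40 (0.0697), and with the length trend removed as well -0.17 (limma adjusted p = 0.363) and -0.19 (0.336). Fxyd5 differed by -0.27 (limma adjusted p = 0.268) and -0.31 (limma adjusted p = 0.426). Without that library it differed by -0.37 and -0.41 (limma adjusted p = 0.0447 and 0.0412). With the length trend removed over all 9 libraries it differed by -0.35 and -0.37 (limma adjusted p = 0.303 and 0.455). With both changes it differed by -0.47 and -0.49 (limma adjusted p = 0.0386 and 0.0440). These length-corrected values rest on its longest transcript, taken at 2998 bases. Across the fits that left out each library in turn, Fxyd5 ran from -0.37 to -0.20 and from -0.41 to -0.24 (limma adjusted p up to 0.580 and 0.885). In the same fits Fxyd7 ran from -0.44 to -0.31 and from -0.47 to -0.26 (limma adjusted p up to 0.504 and 0.885).

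Fxyd1, which encodes phospholemman, followed the choroid plexus libraries. It stood at 93.54, 94.95 and 281.06 TPM in control, at 261.62, 75.76 and 212.99 TPM in PFOS P1-7 and at 194.18, 216.88 and 72.67 TPM in PFOS P8-14. The 5 libraries rich in choroid plexus markers were its 5 highest. Fxyd2 differed from control by -0.35 and -0.33, with overlapping groups. Nkain1, Nkain2 and Nkain4 differed by no more than 0.17 in either direction, and Nkain3 had group means of about 1 TPM.

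**Figure D5:**
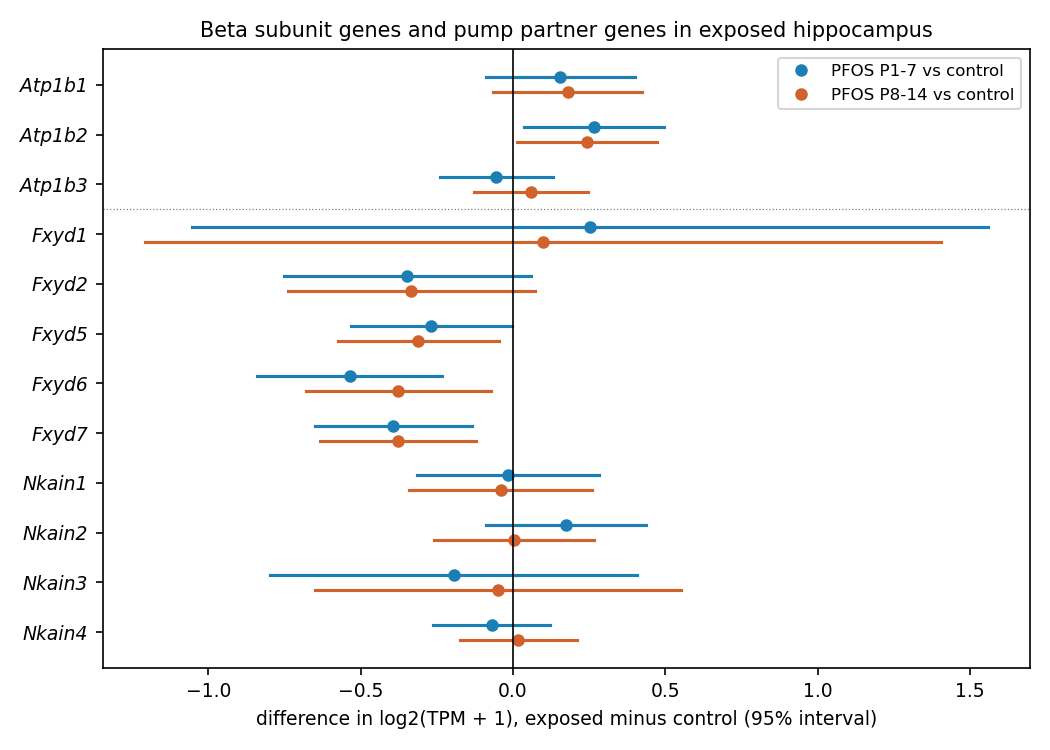
Difference in log2(TPM + 1) from control (horizontal axis) with its 95% interval for the beta subunit genes (above the dotted line) and the 9 tested pump partner genes, in PFOS P1-7 and PFOS P8-14. The Atp1b2 intervals start at 0.04 and 0.01, and those of Fxyd6 and Fxyd7 lie below 0 in both groups.

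Genes that use the sodium gradient, namely sodium-coupled transporters and exchangers, were all measured, and all 14 were above control in both windows, where 65.5% and 62.1% of all genes were. The 10 oligodendrocyte and 15 choroid plexus markers were likewise all above control in both. The median log2 difference was 0.22 in PFOS P1-7 beside 0.09 over all genes, and 0.21 in PFOS P8-14 beside 0.06. None passed in limma (smallest adjusted p = 0.205 and 0.426). At an unadjusted p below 0.05, 4 were higher in PFOS P1-7 and 3 in PFOS P8-14, beside 12.5% and 6.33% of all genes higher. With the length trend removed the list medians fell to 0.04 and 0.06, beside -0.01 over all genes in each window. In that fit 1 was higher by the unadjusted rule in each, beside 5.19% and 3.69% of all genes. When control replicate 1 was left out there were 9 in each, beside 25.2% and 21.5% of all genes. With both changes 2 were higher and 1 lower in PFOS P1-7, beside 10.7% and 11.5% of all genes, and 4 higher in PFOS P8-14, beside 10.5%. Their list mean had r = 0.91 with Atp1b1, 0.99 with Atp1b2 and -0.50 with Atp1b3 (n = 9), and 0.27, 0.94 and -0.37 without the libraries farthest from each gene's median. The list shares Slc1a2 and Slc1a3 with the astrocyte markers.

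Slc8a2, the neuronal sodium-calcium exchanger NCX2, stood at 434.04, 264.63 and 243.78 TPM in control libraries, at 443.62, 415.20 and 381.81 TPM in PFOS P1-7 and at 423.26, 375.24 and 436.37 TPM in PFOS P8-14. Control replicate 1 again lay among the exposed libraries. The log2 difference was 0.44 (limma adjusted p = 0.255) and 0.43 (limma adjusted p = 0.443), and without that control 0.70 and 0.69 (limma adjusted p = 0.00541 and 0.00999). With the length trend removed it was 0.25 and 0.30 over all 9 libraries (limma adjusted p = 0.464 and 0.518), and 0.43 and 0.47 without that control (0.0347 and 0.0361). Across the fits that left out each library in turn, Slc8a2 ran from 0.28 to 0.70 and from 0.28 to 0.69 (limma adjusted p up to 0.567 and 0.885). Slc8a3, which encodes NCX3, differed by 0.49 and 0.47 (limma adjusted p = 0.205 and 0.426) with no overlap in either window. Of all genes, 12.3% and 7.31% were higher without overlap. Without that control Slc8a3 differed by 0.64 and 0.62 (limma adjusted p = 0.0102 and 0.0168). It did not pass with the length trend removed as well (0.39 and 0.42, limma adjusted p = 0.0704 and 0.0661). On leaving out each library in turn, Slc8a3 ran from 0.39 to 0.64 and from 0.37 to 0.62 (limma adjusted p up to 0.525 and 0.885). Slc38a1, a neuronal glutamine transporter, differed by 0.29 and 0.25. Slc12a2, the chloride importer NKCC1, differed by 0.52 and 0.33. The 5 libraries rich in choroid plexus markers were its 5 highest, at 44.53 to 67.30 TPM against 30.12 to 42.90 TPM in the others. They were 1 control, which had the lowest marker mean of the 5, and 2 in each exposed group. The part of those markers in the difference was not tested. Among the most abundant of the list, the glutamate transporters Slc1a2, Slc1a3 and Slc1a1 differed by 0.21, 0.15 and 0.13 in PFOS P1-7 and by 0.15, 0.14 and 0.03 in PFOS P8-14.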

How the data were processed

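The authors deposited 1 table of TPM per gene symbol for 9 libraries, each column summing to 1000000 within rounding. Per the labels' protocols, RNA was extracted with a lipid tissue kit and libraries were stranded and mRNA-selected. The submitters' processing notes name STAR 2.5.3a, RSEM 1.3.3, fastp 0.21.0 and bcl2fastq, and the mm10 build. For the annotation, nothing is given in the sources used here. Because TPM hold no depth, no counting interval was computed.

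From the deposited TPM, log2(TPM + 1) was fitted with limma 3.58.1 in R 4.3.3 with 1 mean per group and a mean-variance trend. A gene was tested if 3 or more of the 9 libraries had 1 TPM or more (14336 genes), with Benjamini-Hochberg adjustment over all of them. The threshold was an adjusted p of 0.05. A fold change on this scale understates that of low genes. Transcript lengths came from GENCODE M21, matched for 93.9% of tested genes, and the length trend was removed per library by loess. Promoter motifs were counted in RefSeq windows. The fits were tested on data simulated for each gene separately, with no effect shared by the genes of a library. That test therefore does not cover the length trend. No libraries held identical values.

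Genes were named by rule: the 3 beta subunit genes, every tested pump partner, the 5 sodium gradient users with the highest mean and any at an unadjusted p below 0.05, the 3 highest of each cell type list, and the 5 genes most like each beta subunit gene, skipping predicted genes. Some genes that the rule names are not reported here. The genes and lists were chosen with earlier results of these data known. Alternatives covered pseudocount, filter, scaling, block, weights, moderation, covariate, length and leaving out each library. Removal of a length and GC trend, the length trend without control replicate 1, the alternatives for the partner genes and the correlations without the 2 farthest libraries were added after seeing the data.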

Additional observations from a re-analysis of the deposited data

How the results depend on the processing

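Atp1b1 and Atp1b2 stayed above control in both windows under every alternative run, and Atp1b3 stayed below it in PFOS P1-7. With 14 alternatives that left out no single library, the Atp1b2 difference ran from 0.18 to 0.37 in PFOS P1-7 (limma adjusted p from 0.0150 to 0.396) and from 0.19 to 0.32 in PFOS P8-14 (0.0361 to 0.591). It passed the threshold only with array weights (0.37 and 0.32), which give control replicate 1 a weight of 0.248, and in fits without that library. With the length trend removed and without control replicate 1, chosen after seeing the data, it was 0.30 in each window, and Atp1b3 in PFOS P8-14 was -0.0089. Leaving out each library in turn gave 0.093 to 0.28 and 0.12 to 0.30 for Atp1b1, 0.18 to 0.39 and 0.16 to 0.37 for Atp1b2, and -0.12 to -0.0054 and -0.0092 to 0.094 for Atp1b3, in PFOS P1-7 and PFOS P8-14. Between the windows it gave -0.022 to 0.064 for Atp1b1 (-0.022 without PFOS P1-7 replicate 3), -0.057 to 0.0069 for Atp1b2 (0.0069 without PFOS P8-14 replicate 2) and 0.06 to 0.16 for Atp1b3. With median-of-ratios scaling the Atp1b2 difference between windows was 0.0032.

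The number of genes passing, 0 in limma with all 9 libraries, was 2152 higher and 762 lower in PFOS P1-7 and 653 and 400 in PFOS P8-14 with array weights. With the length trend removed and without control replicate 1 it was 365 and 308, and 218 and 182. Leaving out each library gave 0 to 2023 higher and 0 to 640 lower in PFOS P1-7, and 0 to 1252 higher and 0 to 487 lower in PFOS P8-14; the highest values came without control replicate 1, and without PFOS P8-14 replicate 1 there was 1 gene higher in PFOS P1-7. The cause was not tested.

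Correlations of deviations from the group mean ran from -0.47 to 0.53 between libraries of the same replicate number. Between libraries of different numbers they ran from -0.60 to 0.67. With 3 libraries a group these correlations cannot decide whether the numbers pair libraries. With the replicate number as a block, limma adjusted p was 0.360, 0.174 and 0.707 for Atp1b1, Atp1b2 and Atp1b3 in PFOS P1-7 and 0.403, 0.297 and 0.739 in PFOS P8-14, and 0 genes passed.

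Depth is unknown, and 3 libraries a group limit the precision. The limma SE of a beta subunit difference was 0.08 to 0.11 on the log2 scale.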
